A study of Danio rerio with 8 samples.

Results

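The genes described here are those of the Notch pathway and the hairy-related transcriptional repressors, 37 of the 13325 genes in the authors' annotated table. They were chosen by their symbols, with earlier results of these data known (receptors, ligands, proteases, nuclear partners, modifiers and *her*, *hes* and *hey* genes). Notch receptors are activated by ligands on a neighbouring cell. A ubiquitin ligase of the Mind bomb family drives endocytosis of the ligand, an ADAM protease and then gamma-secretase cut the receptor, and the freed intracellular domain joins RBPJ and a Mastermind coactivator on DNA, where hairy-related genes are classical targets. In the vertebrate retina Notch activity keeps progenitors from differentiating, its loss in mouse retinal progenitors gives more photoreceptors, and in the adult zebrafish retina it holds Müller glia, the source of new rods, in quiescence.

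The study sorted retinal cells of adult *xops:eGFP* zebrafish, whose eGFP is under a rod opsin promoter from *Xenopus* and marks rods, to identify transcripts enriched or depleted in rods. GFP+ cells are labelled as rods and GFP- cells as retinal cells that are not rods, and both populations carry the transgene and come from unlesioned fish that were dark-adapted before dissection. Each of 4 fish gave 1 GFP+ and 1 GFP- library from both of its retinas, so the 8 libraries form 4 pairs. The fish are called 1, 2, 2_2 and 5_2 after the labels. The meaning of the suffix in 2_2 and 5_2 is not given in the sources used here, and the exact age and sex of these fish are not in the labels. The populations are dissociated cells, so processes and outer segments lost in dissociation are not represented, and RNA was amplified before sequencing.

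GFP+ libraries held 1722055 to 2206479 counts on genes and GFP- libraries 1865121 to 2514874. Mitochondrial genes took 12.4% to 39.3% of them in GFP+ and 25.0% to 66.1% in GFP- libraries, the highest share being in the GFP- library of fish 2_2, which after scaling had the smallest library size of the 8. Levels are counts per 1e6 of the TMM-scaled library size (CPM), and are compared between populations but not between genes, since they are not divided by gene length. All 8 rod markers examined were higher in GFP+ cells, with summed levels of 30915 to 58263 CPM against 2384 to 12535 CPM, and all 8 cone markers were lower, at 5187 to 7798 CPM against 20786 to 44450 CPM. Microglia and macrophage markers summed to 28.6 to 197 CPM in GFP+ and 1437 to 3865 CPM in GFP- libraries, and all 6 tested were lower. Of 5 Müller glia markers 1 was lower in GFP+ cells, with summed levels of 273 to 598 against 498 to 669 CPM.

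Of the 37 genes, 34 had enough counts to be tested, and *dla*, *jag2b* and *her4.1* did not. GFP+ and GFP- libraries were compared within fish with edgeR's quasi-likelihood test, and a gene was called at a false discovery rate (FDR) under 0.05 over all 12564 genes tested. The ligand *dll4* and the Numb relative *numbl* were higher in GFP+ cells. The receptor *notch2*, the deltex gene *DTX1*, the coactivator *maml3* and the hairy-related gene *her9* were lower. The 2 higher genes of 34 compare with 5.6% of all genes tested, and the 4 lower genes with 9.57%, so neither count stands far from the background of the whole comparison. The paper, by gene ontology, lists Notch signaling among the processes overrepresented in GFP+ cells. Its gene set and its test were not those used here, and overrepresentation was not tested here. At the stricter FDR of 0.01, *dll4* alone was higher (3.13% of all genes) and *notch2* and *DTX1* were lower (5.68% of all genes). The median log2 fold change of the 34 genes was 0.03, against -0.02 over all genes, and their median absolute change was 0.70 against 0.66. In bulk libraries of sorted cells, fewer cells that express a gene and less RNA per cell cannot be told apart, for these and for all results that follow.

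**Figure D1:**
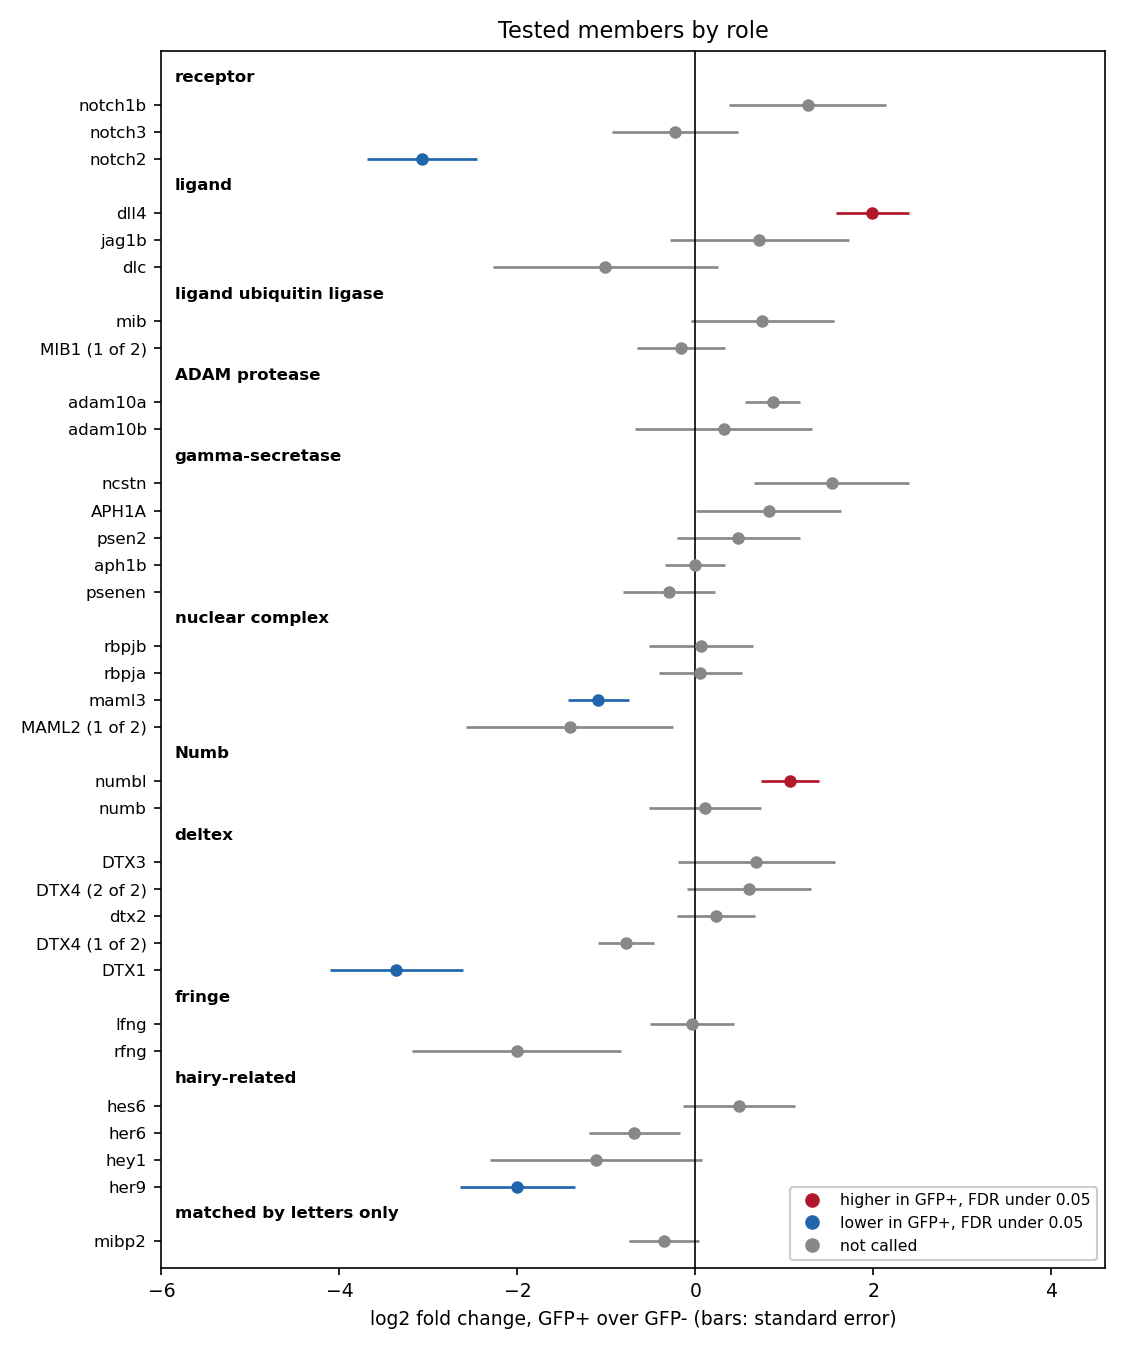
Log2 fold change of GFP+ over GFP- cells (horizontal axis) for 33 of the 34 tested genes, grouped by role. Points are edgeR estimates over 4 fish and bars their standard errors; the 2 red and 4 blue points passed an FDR of 0.05, and *DTX1* and *notch2* lie farthest to the left, at -3.36 and -3.07.

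Among the receptors, *notch2* was the one that differed. Its gene (ENSDARG00000043130) lies on chromosome 8 of Zv9, from 20087003 to 20157810 on the plus strand. In GFP+ libraries of fish 1, 2, 2_2 and 5_2 its level was 6.27, 2.16, 0 and 3.66 CPM. In the GFP- libraries of the same fish it was 36.2, 20.1, 6.26 and 30.4 CPM. GFP- was thus above GFP+ in each of the 4 fish, and the populations met only at the GFP+ library of fish 1 and the GFP- library of fish 2_2. *notch2* was 8.40-fold lower in GFP+ cells (log2 fold change -3.07, SE 0.62, edgeR FDR 0.00121). The 0 in the GFP+ library of fish 2_2 allows up to 3 counts, and its GFP- partner held 6 counts. The call held when any 1 fish was left out.

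The other receptors gave no call, and their libraries did not line up by population. *notch1b* ranged from 0.863 to 16.2 CPM in GFP+ libraries and from 1.94 to 4.17 CPM in GFP- libraries, with GFP+ higher in 3 fish and lower in fish 2 (log2 fold change 1.26, SE 0.88, FDR 0.399). *notch3*, which in zebrafish Müller glia restrains proliferation, reached 26.4 CPM in the GFP+ library of fish 1 but 2.16 to 8.69 CPM in the other 3, against 6.62 to 14.6 CPM in GFP- libraries (log2 fold change -0.23, SE 0.71, FDR 0.888). *notch1a* was not analysed here.

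The ligand *dll4*, best known from the tips of growing vessels and also made by newborn neurons of the developing mouse retina, was higher in GFP+ cells. The gene (ENSDARG00000070425) lies on chromosome 20 of Zv9, from 28274771 to 28283631 on the plus strand. In fish 1, 2, 2_2 and 5_2 its level was 40.6, 20.3, 59.3 and 76.4 CPM in GFP+ libraries. The GFP- libraries of these fish were at 4.41, 5.03, 22.9 and 26.5 CPM. GFP+ was higher in every fish, by ratios of 9.21, 4.03, 2.59 and 2.88, although the GFP+ library of fish 2 lay below the GFP- libraries of fish 2_2 and 5_2. Over the 4 fish *dll4* was 3.97-fold higher (log2 fold change 1.99, SE 0.41, edgeR FDR 0.00152), and it was called without any 1 fish but not without the pairing by fish (FDR 0.108). In both populations the fish with the suffix lay above those without it, the pairs being 59.3 and 76.4 against 20.3 and 40.6 CPM in GFP+ cells.

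Because *dll4* is a gene of endothelial cells, their markers were set beside it. Of 7 markers found, 3 could be tested and 1, the endothelial cadherin *cdh5*, was lower in GFP+ cells (log2 fold change -1.65, FDR 0.0155). The summed level was 27.2 to 58.8 CPM in GFP+ and 61.5 to 91.0 CPM in GFP- libraries. The other tested markers, *kdr* (log2 fold change 0.00, FDR 0.999) and *tek* (-0.45, FDR 0.876), were not called, and *kdr* was at 10.0 to 31.0 CPM in GFP+ and 7.74 to 35.0 CPM in GFP- libraries. Of the markers too sparse to test, *tie1* was at 0 counts in every GFP+ library and *kdrl* had 9, 2, 7 and 1 counts in GFP+ and 17, 3, 3 and 5 counts in GFP- libraries, whereas *plvapb* had 8, 0, 8 and 3 counts in GFP+ libraries of fish 1, 2, 2_2 and 5_2 and 2, 2, 0 and 0 counts in GFP- libraries. The part of endothelial cells in the level of *dll4* was not tested.

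The remaining ligands were sparse. *jag1b*, a Jagged ligand, was at 1.83 to 11.2 CPM in GFP+ and 0.774 to 4.41 CPM in GFP- libraries (log2 fold change 0.72, SE 1.00, FDR 0.720). *dlc*, a Delta ligand of the segmentation clock, had 0 counts in the GFP+ libraries of fish 2 and 2_2 and in the GFP- library of fish 2_2, and its highest level was 16.2 CPM in the GFP- library of fish 5_2 (log2 fold change -1.01, SE 1.26, FDR 0.680). *dla* held at most 13 counts and *jag2b* at most 10 counts in any library, and neither was tested. *dld* was not analysed here.

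The Mind bomb genes in the set were *mib* and *MIB1 (1 of 2)*, on unplaced scaffolds of Zv9, and neither was called. *mib* was at 6.91 to 10.7 CPM in GFP+ libraries and at 5.99 to 9.06 CPM in 3 GFP- libraries, with 0 counts in that of fish 2_2 (log2 fold change 0.75, SE 0.80, FDR 0.619). *MIB1 (1 of 2)* was at 12.1 to 57.4 CPM in GFP+ and 13.6 to 55.8 CPM in GFP- libraries (log2 fold change -0.16, SE 0.49, FDR 0.888). Its difference changed direction between fish, the ratio of GFP+ to GFP- being 1.49, 0.217, 4.06 and 0.551 in fish 1, 2, 2_2 and 5_2.

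Of the ADAM proteases, *adam10a* came close to a call. It encodes a zebrafish form of the protease that sheds the Notch ectodomain, and lies on chromosome 7 of Zv9, from 31745440 to 31828554 on the minus strand. Its level was 133, 207, 119 and 132 CPM in GFP+ libraries of fish 1, 2, 2_2 and 5_2, and 103, 64.3, 118 and 49.9 CPM in GFP- libraries. No GFP- library reached the lowest GFP+ library, but in fish 2_2 the difference was only between 119.3 and 117.8 CPM. The log2 fold change was 0.87 (SE 0.31, FDR 0.0604). *adam10a* passed the threshold in 7 of the 15 alternative settings, among them edgeR's likelihood ratio test (FDR 0.0303) and DESeq2 (FDR 0.0494), and without fish 2 its FDR was 0.359. *adam10b* was sparse, with 1 to 13 counts per library (log2 fold change 0.32, SE 1.00).

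All 6 genes of gamma-secretase, the protease complex that cuts the receptor within the membrane, had counts in every library, and 0 of the 6 were called by edgeR or DESeq2 (0 of the 6 at an unadjusted p under 0.05). *psen2*, which encodes a catalytic subunit, was at 6.40 to 9.24 CPM in GFP+ and 4.73 to 7.30 CPM in GFP- libraries (log2 fold change 0.48, SE 0.69). The level of *psen2* was higher in GFP+ cells of all 4 fish, and so was that of *ncstn*, which encodes the substrate-binding subunit nicastrin, at 4.11 to 12.9 against 0.945 to 4.17 CPM (log2 fold change 1.53, SE 0.87, FDR 0.281). *aph1b*, a scaffold subunit, gave the value nearest to 0 of the whole set, its GFP+ libraries averaging 40.2 ± 12.5 CPM and its GFP- libraries 39.6 ± 11.9 CPM (SD, n = 4 each), with an SE of 0.34 around a log2 fold change of 0.00. *psenen*, which encodes a small subunit needed for activity, and *APH1A* had log2 fold changes of -0.29 (SE 0.52) and 0.82 (SE 0.81). *psenen*, *psen2*, *APH1A* and *ncstn* had SEs of 0.52 to 0.87, so that a 2-fold change of these genes would hardly be detectable at this depth.

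Within the nuclear complex, 1 of the 4 tested genes, a Mastermind coactivator, was called. *rbpja* and *rbpjb*, which encode the DNA-binding protein RBPJ, had log2 fold changes of 0.06 (SE 0.47) and 0.07 (SE 0.59), with means of 17.3 ± 5.36 against 17.8 ± 11.3 CPM (SD, n = 4) for *rbpja*. The Mastermind coactivator *maml3* was lower in GFP+ cells. Its gene (ENSDARG00000079552) lies on chromosome 1 of Zv9, from 40726408 to 40911858 on the minus strand. In fish 1, 2, 2_2 and 5_2 the level of *maml3* was 24.1, 9.50, 39.3 and 27.4 CPM in GFP+ libraries and 46.3, 29.0, 76.1 and 51.8 CPM in GFP- libraries. The ratio of GFP+ to GFP- was 0.520, 0.327, 0.516 and 0.530, and thus below 1 in each fish, while the populations overlapped because fish 2_2 was high and fish 2 low in both. *maml3* was 2.13-fold lower (log2 fold change -1.09, SE 0.35, edgeR FDR 0.0345). This call did not survive the loss of any 1 fish, the FDR being 0.0998, 0.156, 0.0576 and 0.0989 without fish 1, 2, 2_2 and 5_2. The log2 fold change of *maml3* changed little in those fits, at -1.16, -0.94, -1.11 and -1.13. *MAML2 (1 of 2)* had 0 to 13 counts per library and a log2 fold change of -1.41 (SE 1.17, FDR 0.495).

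**Figure D2:**
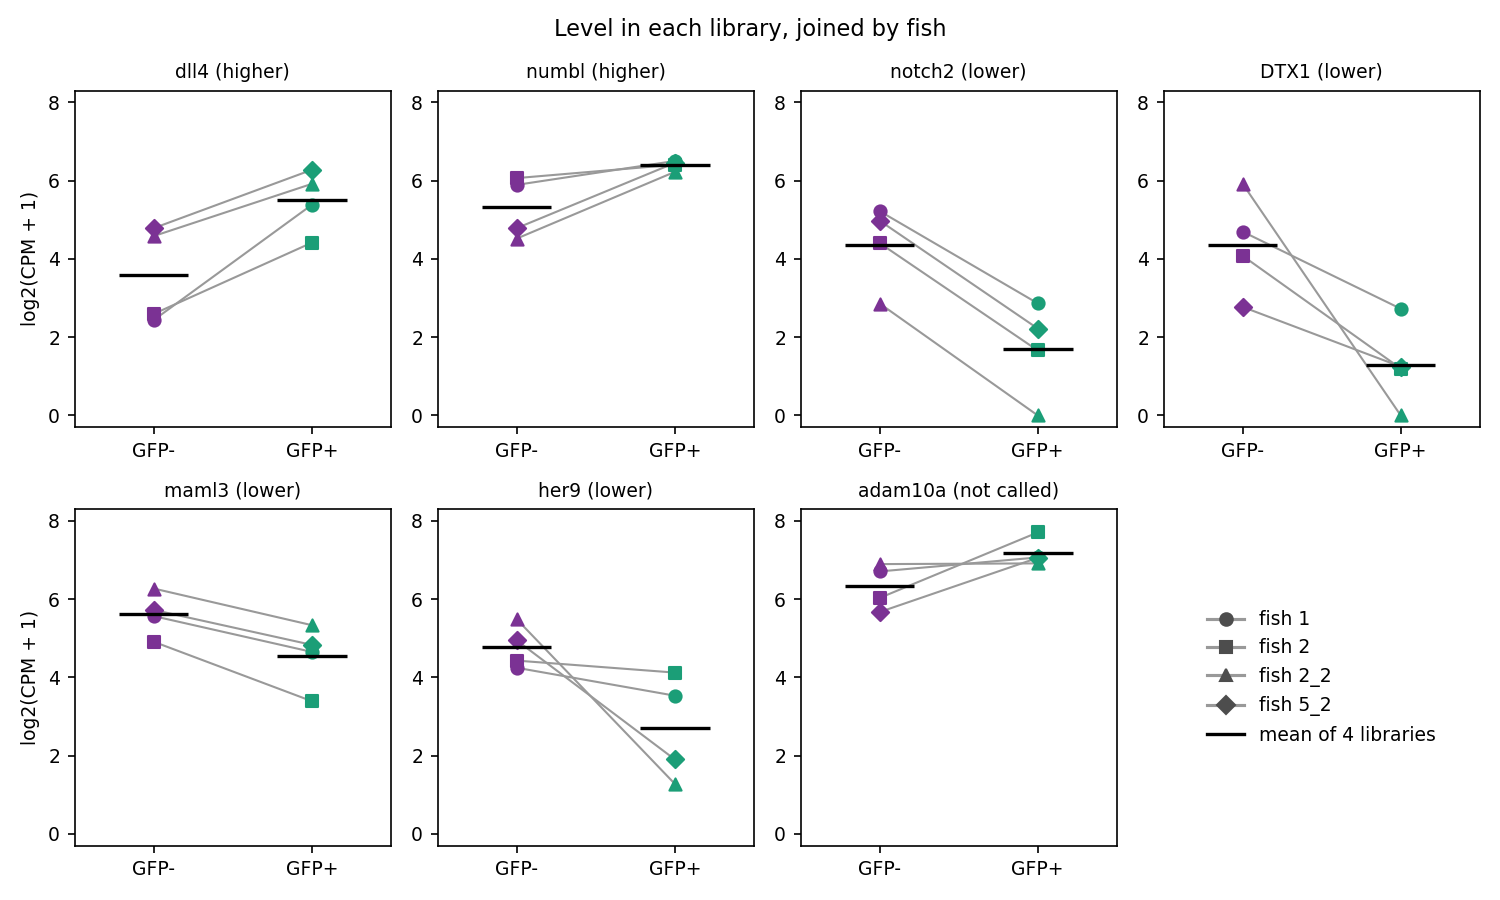
Level of the 6 called genes and of *adam10a* in every library as log2(CPM + 1), with GFP- on the left and GFP+ on the right of each panel; grey lines join the libraries of 1 fish and black bars are means of 4 libraries. All lines of *dll4* and *numbl* rise from GFP- to GFP+ and all lines of *notch2*, *DTX1*, *maml3* and *her9* fall, with those of *her9* steepest in fish 2_2 and 5_2.

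Numb proteins are adaptors that oppose Notch by directing the receptor to endocytosis, and in mouse rods Numb takes part in the delivery of channels to the cilium. Of the pair detected here, *numbl* was higher in GFP+ cells. The gene (ENSDARG00000024043) lies on chromosome 15 of Zv9, from 13645567 to 13761509 on the plus strand. Its GFP+ libraries lay close together, at 89.5, 83.7, 73.6 and 86.4 CPM in fish 1, 2, 2_2 and 5_2, or 83.3 ± 6.88 CPM (SD, n = 4). Its GFP- libraries were at 58.3 and 65.8 CPM in fish 1 and 2 and at 21.9 and 26.5 CPM in fish 2_2 and 5_2, so all lay below the lowest GFP+ library. *numbl* was 2.08-fold higher (log2 fold change 1.06, SE 0.33, edgeR FDR 0.0289). The FDR was 0.0706, 0.0892 and 0.166 without fish 1, 2_2 and 5_2, and the gene was called when fish 2 was left out. Without fish 1, 2, 2_2 and 5_2 the log2 fold change of *numbl* was 1.22, 1.32, 0.89 and 0.87. *numb* was at 5.94 to 16.0 CPM in GFP+ and 5.03 to 13.9 CPM in GFP- libraries (log2 fold change 0.11, SE 0.63, FDR 0.946).

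Deltex proteins are ubiquitin ligases, and some of them bind the intracellular domain of Notch. Of 5 deltex genes, *DTX1* was lower in GFP+ cells and had the largest fitted change of the 34 genes over all 4 fish. It (ENSDARG00000062840) lies on the unplaced contig Zv9_NA771, from 12736 to 43326. In GFP+ libraries its level was 5.61, 1.29, 0 and 1.37 CPM in fish 1, 2, 2_2 and 5_2, from 17, 3, 0 and 3 counts. In GFP- libraries it was 24.9, 15.9, 59.4 and 5.83 CPM. The populations did not overlap, but the GFP- library of fish 5_2 exceeded the GFP+ library of fish 1 only by 5.83 to 5.61 CPM. *DTX1* was 10.3-fold lower (log2 fold change -3.36, SE 0.75, edgeR FDR 0.00291), and it remained called when any 1 fish was left out. Its log2 fold change was -4.07 without fish 1 and -2.52 without fish 2_2, where that of *notch2* was the larger at -2.85. *DTX4 (1 of 2)* was lower in GFP+ cells of all 4 fish, at 27.4 to 66.5 against 52.7 to 74.0 CPM, without reaching the threshold (log2 fold change -0.78, SE 0.32, FDR 0.107). Its copy *DTX4 (2 of 2)*, *dtx2* and *DTX3* had log2 fold changes of 0.60 (SE 0.69), 0.23 (SE 0.44) and 0.68 (SE 0.88).

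Fringe proteins add sugars to Notch and alter which ligands it answers. *lfng* varied widely among GFP+ libraries, from 3.45 CPM in fish 2 to 77.9 CPM in fish 1, against 18.8 to 39.1 CPM in GFP- libraries (log2 fold change -0.04, SE 0.47, FDR 0.975). *rfng* had 0, 1 or 1 count in 3 GFP+ libraries but 21 counts in that of fish 2, and 3 to 20 counts in GFP- libraries (log2 fold change -2.01, SE 1.17, FDR 0.295).

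Of the 5 hairy-related genes, 4 were tested and *her9* was lower in GFP+ cells. *her9* encodes a repressor of the Hes family whose expression in the zebrafish neural plate does not need Notch. It (ENSDARG00000056438) lies on chromosome 23 of Zv9, from 23693662 to 23695447 on the minus strand. In GFP+ libraries of fish 1, 2, 2_2 and 5_2 its level was 10.6, 16.4, 1.43 and 2.74 CPM, and in GFP- libraries 18.0, 20.5, 43.8 and 29.8 CPM. Every GFP+ library lay below every GFP- library, narrowly in fish 1 and 2 and widely in fish 2_2 and 5_2. *her9* was 4.00-fold lower (log2 fold change -2.00, SE 0.65, edgeR FDR 0.0377). Without fish 1, 2_2 and 5_2 the log2 fold change of *her9* was -2.61, -1.29 and -1.51 and the FDR 0.0575, 0.168 and 0.253, and without fish 2 they were -2.75 and 0.0213.

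The classical targets of Notch in the set gave no call. *her6*, a zebrafish counterpart of mammalian Hes1, was highest in the GFP+ library of fish 1 and the GFP- library of fish 2_2, at 59.1 and 59.4 CPM, and lowest in the GFP+ library of fish 2, at 5.18 CPM (log2 fold change -0.69, SE 0.51, FDR 0.440). Its ratio of GFP+ to GFP- was 3.13 in fish 1 but 0.291, 0.325 and 0.494 in fish 2, 2_2 and 5_2. Without fish 1 the log2 fold change of *her6* was -1.47, still without a call (edgeR FDR 0.0870). *hey1* had 0 to 29 counts per library (log2 fold change -1.12, SE 1.19, FDR 0.620). *her4.1* had 0 counts in both libraries of fish 1 and 2 and 4 to 7 counts in those of fish 2_2 and 5_2, and was not tested. Its near-identical tandem copies *her4.2* to *her4.5* had 0 counts in all 8 libraries, so how reads of these copies were assigned is uncertain. *hes6*, whose product in mouse opposes Hes1, was at 3.30 to 23.6 CPM in GFP+ and 5.03 to 10.4 CPM in GFP- libraries (log2 fold change 0.49, SE 0.63, FDR 0.691). *mibp2*, which encodes a muscle integrin-binding protein and was chosen only because its symbol begins like that of Mind bomb, had a log2 fold change of -0.35 (SE 0.39).

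**Figure D3:**
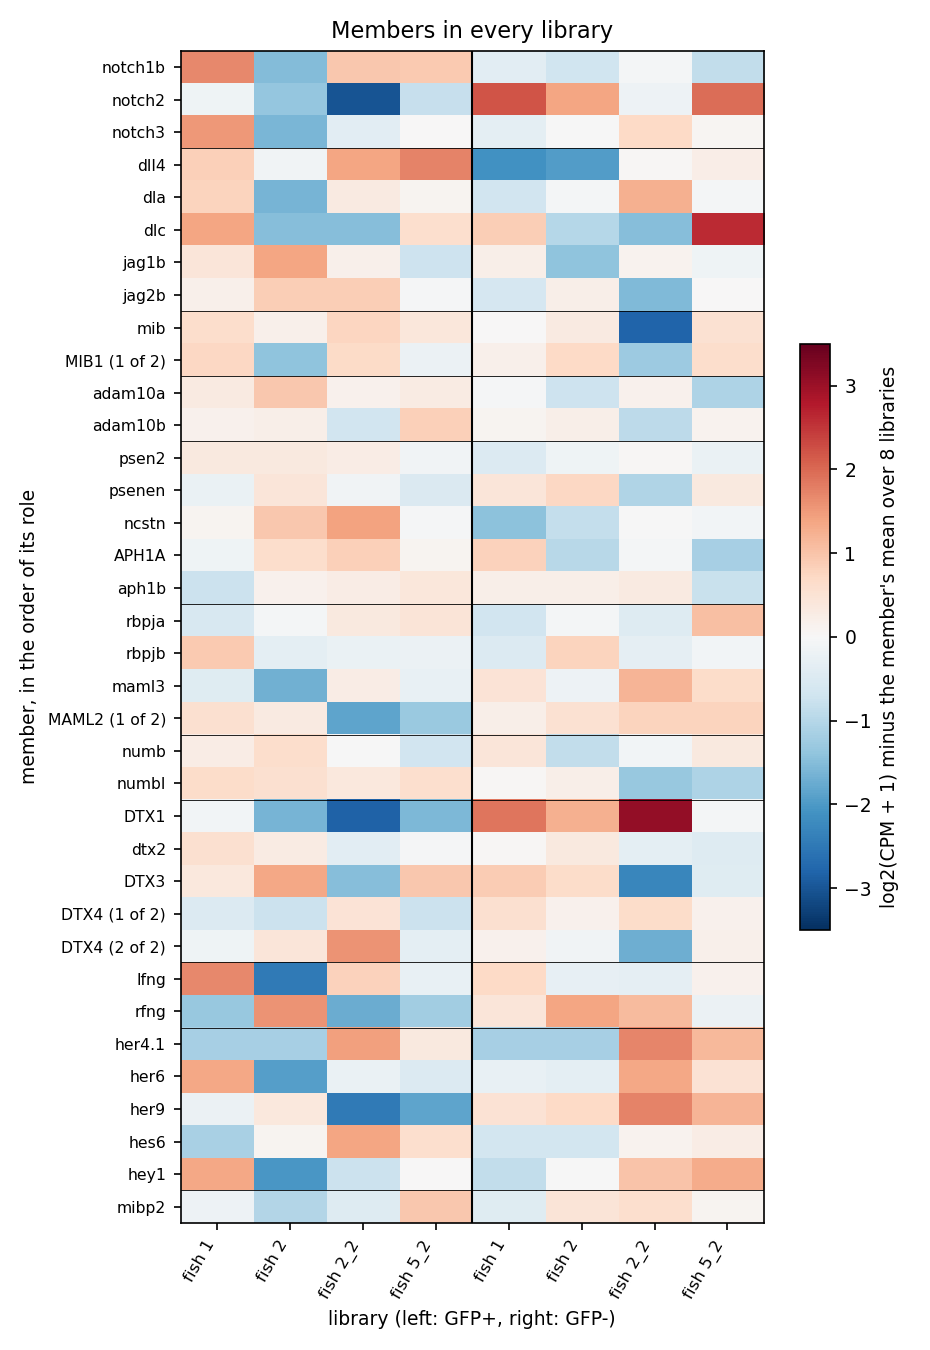
36 of the 37 genes (rows, in the order of their roles) in the 8 libraries (columns, GFP+ left of the line and GFP- right), as log2(CPM + 1) minus the mean of the gene over 8 libraries. The rows of *notch2* and *DTX1* are blue on the left and mostly red on the right, and *her9* is mostly blue on the left and red on the right. *numbl* is red and *dll4* mostly red on the left, and both are mixed on the right. Most other rows change colour between fish within a population.

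Agreement among fish gave a similar picture for the whole set. Of the 34 genes tested, 5 were higher in GFP+ cells in all 4 fish (*dll4*, *numbl*, *adam10a*, *psen2* and *ncstn*) and 5 were lower in all 4 (*notch2*, *maml3*, *DTX1*, *DTX4 (1 of 2)* and *her9*), whereas over all genes tested 15.6% were higher and 18.8% lower in all 4. *adam10a* and *numbl* had every GFP+ library above every GFP- library, which held for 5.58% of all genes, and *DTX1* and *her9* had every GFP+ library below, which held for 8.96% of all genes. The 28 genes that were not called include 13 with a mean below 10 CPM over the 8 libraries, for which the depth of these libraries could show only large differences, and the median SE of the 34 genes was 0.64 on the log2 scale.

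The libraries of fish 1 and 2 and those of fish 2_2 and 5_2 were also compared, since the suffix in the labels may mark a separate series. Sex was a variable of the study's design, but the labels do not give it. The paper lists *pmela* as present in rods of males but not of females. In fish 1, 2, 2_2 and 5_2 *pmela* had 0, 0, 11 and 18 counts in GFP+ libraries. Its GFP- libraries had 36, 42, 0 and 0 counts. The paper's entry was drawn from these same libraries, and *pmela* is also among the pigment epithelium markers used here. Whether sex follows the suffix is not given in the labels and was not tested. If it does, the comparison by suffix cannot tell them apart. No gene of the 34 had a GFP+ to GFP- difference that depended on the suffix at an FDR of 0.05 (edgeR interaction term), and 21 of all genes did (0.167%). At an unadjusted p under 0.05, 2 of the 34 did, against 6.08% of all genes. These were *her9* and *numbl*. In the same fit the log2 fold change of *her9* was -0.54 (SE 0.68) in fish 1 and 2 and -4.02 (SE 0.84) in fish 2_2 and 5_2, with an interaction p of 0.00273 and FDR of 0.320. That of *numbl* was 0.48 (SE 0.39) and 1.72 (SE 0.43), with an interaction p of 0.0405 and FDR of 0.788. *dll4* stood at 2.61 (SE 0.59) and 1.45 (SE 0.55), *DTX1* at -2.72 (SE 0.93) and -4.45 (SE 1.20), *maml3* at -1.25 (SE 0.50) and -0.93 (SE 0.49), and *notch2* at -2.81 (SE 0.85) and -3.48 (SE 1.03). *notch2* was the only one of the 6 called genes with an FDR under 0.05 in both pairs of fish, at 0.0274 and 0.0281.

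**Figure D4:**
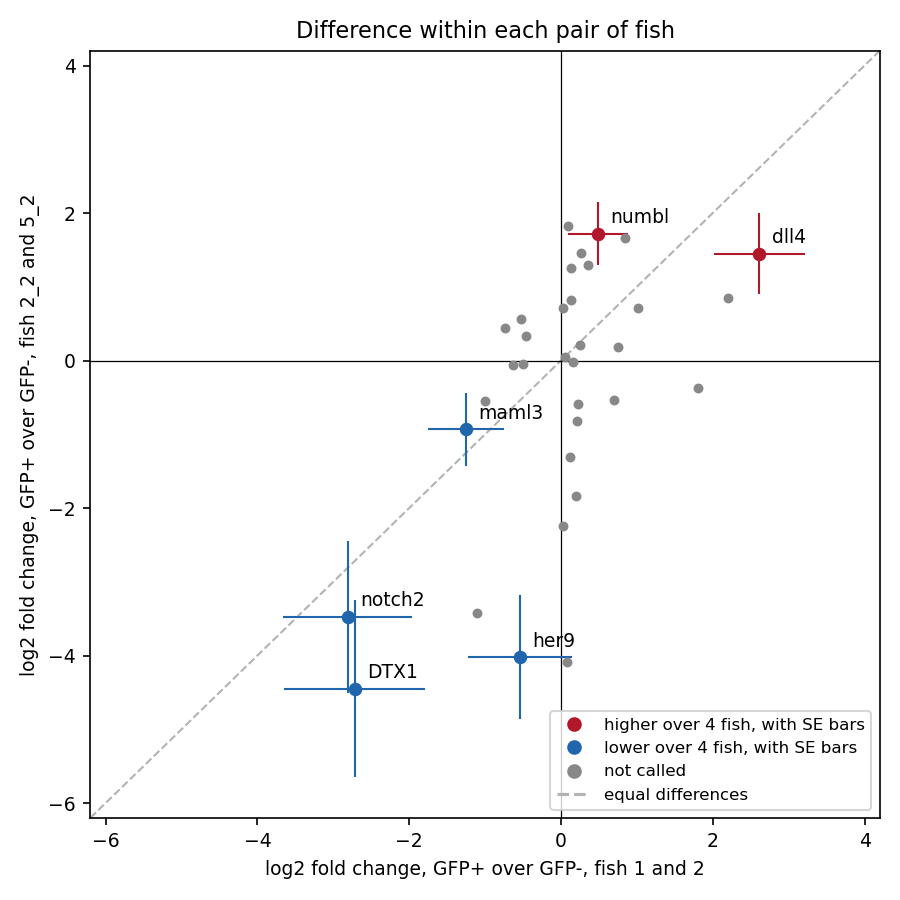
Log2 fold change of GFP+ over GFP- cells in fish 1 and 2 (horizontal axis) and in fish 2_2 and 5_2 (vertical axis) for the 34 tested genes, from 1 fit; bars are standard errors of the 6 called genes and the dashed line marks equal differences. *her9* lies farthest from that line among the called genes, at -0.54 and -4.02.

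Several lists of markers of cells other than rods, though not all, held genes that were lower in GFP+ cells. In fish 1, 2, 2_2 and 5_2 the microglia and macrophage markers summed to 1437, 3865, 1628 and 2571 CPM in GFP- libraries and to 95.7, 197, 28.6 and 102 CPM in GFP+ libraries, where 3 of the 9 matched gene IDs were at 0 throughout, against 1 in GFP- libraries. The Müller glia markers summed to 659, 498, 664 and 669 CPM in GFP- libraries and to 598, 273, 352 and 396 CPM in GFP+ libraries, and 0 of those 5 markers was at 0 counts throughout a population. Erythrocyte, bipolar, amacrine and horizontal, and ganglion cell markers were called lower in GFP+ cells for 4 of 4, 3 of 7, 4 of 5 and 2 of 2 tested genes. The 5 tested markers of cycling and progenitor cells, 2 of pericytes and smooth muscle and 2 of pigment epithelium had FDRs of 0.130 or above, with median log2 fold changes of -0.30, 0.94 and -1.20. Their part in the levels of *notch2*, *DTX1*, *maml3* and *her9* was not tested.

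Other genes of the pathway were counted from a list of 49 symbols chosen by role, which covers further ligands, glycosylation enzymes, corepressors, acetyltransferases, ubiquitin ligases and proneural factors. Of these, 37 were matched to 39 gene IDs and 31 were tested, of which 1 was higher and 3 were lower in GFP+ cells, with a median log2 fold change of 0.03. Over all genes 5.6% were higher and 9.57% lower, so these counts are near the background. The higher one was *neurod*, a proneural factor of photoreceptors and their precursors, at 247, 290, 1730 and 1534 CPM in GFP+ libraries of fish 1, 2, 2_2 and 5_2 and 119, 293, 615 and 385 CPM in GFP- libraries (log2 fold change 1.14, SE 0.30, FDR 0.0117). GFP+ was higher in 3 fish and about equal in fish 2, and both populations of fish 2_2 and 5_2 lay above those of fish 1 and 2. The proneural factor *neurod4* was lower, at 8.57 to 26.4 against 29.9 to 61.2 CPM (log2 fold change -1.64, SE 0.43, FDR 0.0105). The protease *adam17b*, of the family that can also shed Notch, was lower, at 17.9 to 47.5 against 61.4 to 93.8 CPM (log2 fold change -1.23, SE 0.35, FDR 0.0179). *ctbp2a* was lower, at 70.0 to 130 against 132 to 329 CPM (log2 fold change -0.96, SE 0.26, FDR 0.0145), and its gene encodes both a corepressor and the synaptic ribbon protein Ribeye, which counts per gene do not separate. The 27 other tested genes were not called, among them the corepressor *ncor1* (log2 fold change 0.16, SE 0.26), the deacetylase *hdac1* (0.08, SE 0.27) and the Notch feedback gene *nrarpa* (-1.20, SE 0.66).

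A further 29 gene IDs whose symbols fit the same pattern lie outside the authors' table and are not in the counts of called genes above. There were no counts for 13 of them, and 14 had at most 16 counts over all 8 libraries, including the ligands *jag1a* and *dlb*. The remaining pair were named after their values were seen. *mfng*, a fringe gene, was at 0 counts throughout the GFP+ population but had 16, 30, 1 and 3 counts in GFP- libraries of fish 1, 2, 2_2 and 5_2, so that most of its counts came from fish 1 and 2. Of the 29, *mfng* alone had enough counts to be tested, and it had them only through its GFP- libraries. Its test was thus not independent of the way it was chosen, and no call is drawn from it. *dtx3lb.2*, a deltex relative, had 0 counts in GFP+ and 13, 9, 3 and 3 counts in GFP- libraries. A 0 over the GFP+ population allows up to 3 counts, a limit that accounts for counting error alone, because reads of amplified RNA are not separate molecules.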

How the data were processed

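Reads were trimmed with Sickle, overlapped with FLASH, aligned to Zv9 with BWA and sorted with SAMtools, and the deposited counts were made by the authors with HTSeq-count as whole numbers per Ensembl gene without normalization. Whether HTSeq-count was run with strand is not given in the sources used here. HTSeq's own counters (34.4% to 55.3% of a library's total) were left out. The authors also deposited a table with symbols, Zv9 coordinates, a normalized signal per library and the results of their own comparison (log2 fold changes, likelihood ratios, p-values), which were not used. Whole reads recovered from that signal (100% of values within 0.01 read) equalled the counts.

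Members were found by matching symbols in that table to a pattern, and of the 33737 gene IDs in the count files the 12564 that passed the filter were fitted together. Members, lists and tests were chosen with earlier results of these data known. Every tested member was counted, called members were named with each library's value and others by role. The main analysis used edgeR 4.0.16 under R 4.3.3 and followed the study's methods in taking fish as a blocking term: TMM factors, filterByExpr, a trended dispersion, the quasi-likelihood test and Benjamini-Hochberg adjustment over all genes tested. SEs were derived from the fold change and F. DESeq2 1.42.0, other factors, filters and thresholds, and each fish left out, were alternatives; the test on recovered reads was added after seeing the data. The script was tested on simulated data. Tables and figures used Python 3.11.15.

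Libraries were paired because the study sorted both populations from single fish. As a check, each library's deviation from its population mean was correlated over genes with that of its partner, at 0.323, 0.292, 0.333 and 0.214 (fish 1, 2, 2_2 and 5_2), and with other fish at -0.169 to -0.062 on average. Because each population was centred on its own mean, positive values for partners by themselves push those for other fish below 0. No pair of libraries held identical counts. No sequences are shown because no sequence tables were used here. Of the members and the listed pathway genes, 1 each is counted but not reported by name here.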

Additional observations from a re-analysis of the deposited data

Results flagged for a closer look

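In 74 groups of 4 libraries (37 genes in each population), 6 libraries lay far from the other 3 by Dixon's test. Chance flags about 1 group in 20 where values are normally distributed, so some such flags would arise by chance. For sparse counts that rate is only approximate. In GFP+ cells, *adam10a* was at 207 CPM in fish 2 against 119 to 133 CPM in the others. *rbpjb* was at 23.1 CPM in GFP+ cells of fish 1 against 9.06 to 10.1 CPM, and *DTX4 (1 of 2)* at 66.5 CPM in GFP+ cells of fish 2_2 against 27.4 to 33.7 CPM. *rfng* was at 9.06 CPM in GFP+ cells of fish 2 against 0 to 0.457 CPM. In GFP- cells, *adam10b* was low in fish 2_2, at 1.04 CPM from 1 count, against 3.15 to 3.48 CPM, and *aph1b* was low in fish 5_2, at 22.0 CPM against 44.1 to 48.0 CPM. None of these 6 genes was called.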

How the results depend on the processing

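The count of genes higher in GFP+ cells (2) became 1 at an FDR of 0.01 and 1 to 2 when each fish was left out. It became 1 within fish 1 and 2 (*dll4*) and 1 within fish 2_2 and 5_2 (*numbl*). Without fish 2_2 the 2 genes were *adam10a* and *dll4*. The count of lower genes (4) became 2 at an FDR of 0.01, 2 without scaling factors, 1 within fish 1 and 2, and 2 to 3 when each fish was left out. For the list of other pathway genes, the count of higher genes (1) became 0 at an FDR of 0.01, 0 within fish 1 and 2, and 0 to 1 when each fish was left out. Its count of lower genes (3) became 0 at an FDR of 0.01, 0 without scaling factors, 1 within fish 1 and 2, and 1 to 2 when each fish was left out. Over all genes, the 703 higher calls became 393 at an FDR of 0.01 and 394 to 682 when each fish was left out. Within fish 1 and 2 they became 492, and within fish 2_2 and 5_2 they became 365. The 1202 lower calls became 714 at an FDR of 0.01, 735 without scaling factors and 731 to 1098 when each fish was left out. They became 680 within fish 1 and 2 and 665 within fish 2_2 and 5_2. The cause of these changes was not tested.

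With no replicate block, so that differences between fish count as error, 0 of 26 tested members were higher and 2 were lower, 0 and 1 of the other pathway genes were called in each direction, and over all genes 665 were called in place of 1905. In that fit the FDR of *dll4* was 0.108. Leaving out the scaling factors moved the median log2 fold change of all genes from -0.02 to 0.33 and turned the split of calls from 703 higher and 1202 lower to 1125 higher and 735 lower.

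Over 15 alternatives no called gene changed direction. *notch2* stayed called in 15, *DTX1* in 14, *dll4* in 13, *numbl* in 10, *her9* in 9 and *maml3* in 6. The test on recovered reads is among the 15. It used the same counts with another set of genes, so that it is hardly a separate check, and all 6 genes stayed called. The 28 uncalled genes gave 401 values, of which 44 in 16 genes had another sign and 7, all of *adam10a*, passed the threshold. Among the members, the interaction with the suffix called 0 genes in each alternative run. With 4 fish, low counts and a common biological coefficient of variation of 0.44, only large differences of sparse genes could be called.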
